A study of Homo sapiens with 44 samples.

Results

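Keratins build the intermediate filaments of epithelial cells, and 8 keratin genes of a colon cancer cell line were followed through loss of a chromatin reader, its re-expression and drug treatment. The genes are KRT8, KRT18, KRT19, KRT20, KRT80, KRT23, KRT15 and KRT17, taken by symbol from both deposited tables of RNA levels. This set was chosen with earlier results of these data known, so its counts and medians do not stand for keratins at large. All 8 were found in the table of the GAS41 experiment, among 18797 genes, and in that of the doxorubicin experiment, among 21159 genes. In the GAS41 experiment 7 of them passed the filter on low reads, KRT17 being the exception, and all 8 passed it in the doxorubicin experiment.

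All libraries came from HCT116, a human colon cancer cell line. GAS41, the product of YEATS4, uses a YEATS domain to bind acylated lysines of histone H3, and the series asks how it takes part in transcriptional repression. The GAS41 experiment had 4 groups of 3 biological replicates: knockout cells stably carrying GFP-Flag-GAS41 with the substitutions Y74A and W93A (mut rescue), knockout cells stably carrying normal GFP-Flag-GAS41 (wt rescue), knockout cells with no transgene (GAS41-KO), and unedited cells (WT). Both rescue groups therefore share the knockout background. The promoter of the transgene and the number of clones behind each line are not given in the sources used here, so an effect of GAS41 and a difference between clones cannot be told apart. In the second experiment, unedited cells received doxorubicin at 500 nM, a drug that traps topoisomerase on broken DNA, or its solvent DMSO, in 3 libraries each, and the length of treatment is not given in the sources used here. The other 26 samples of the series, of chromatin immunoprecipitation and its input, were not analysed here.

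A keratin filament is assembled from obligate pairs of a type I (acidic) and a type II (basic) chain, and an unpaired chain is degraded. KRT8 and KRT80 are type II genes, and the other 6 are of type I. KRT8 with KRT18 is the founding pair of simple epithelia such as the gut lining, KRT19 can take the place of KRT18, and KRT20 is added in differentiated intestinal cells. KRT15 and KRT17 are better known from stratified epithelia, KRT15 in basal cells and KRT17 in wounded or stressed skin. KRT80 is a widely expressed type II keratin of differentiating epithelia, and KRT23 is a type I keratin that was first described as inducible in pancreatic cancer cells. By the gene order of GRCh38.p14 in RefSeq, KRT8 and KRT18 are next to each other on chromosome 12, where KRT80 stands beside KRT7. The remaining 5 are on chromosome 17, with KRT20 beside KRT23 and KRT15 beside KRT19.

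Of the 8 genes, 2 had an entry among the RefSeq promoters at hand. KRT20 is shown because it was raised both without GAS41 and by doxorubicin and because its window ends at the start of its single RefSeq transcript, whereas the KRT8 window lay inside its gene and is not shown. The 250 bases before the KRT20 start, at chr17:40885243-40885492 on the minus strand of GRCh38.p14, are given 5′ to 3′ with a CCAAT motif in capitals.
KRT20: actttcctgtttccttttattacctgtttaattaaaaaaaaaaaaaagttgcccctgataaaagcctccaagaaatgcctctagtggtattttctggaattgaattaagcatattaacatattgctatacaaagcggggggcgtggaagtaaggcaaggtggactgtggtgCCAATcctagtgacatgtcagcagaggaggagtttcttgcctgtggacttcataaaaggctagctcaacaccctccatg
The CCAAT motif, here at -79 to -75 from the start, stood in 32% of the 35116 promoter windows of RefSeq, searched on both strands over the same 250 bases. None of the other 4 motifs searched on both strands matched in the KRT20 window. TATAAA was found in 10.7% of all windows, TGANTCA (the AP-1 motif) in 6.57%, AACCNGTT (the motif of grainyhead-like factors) in 1.49% and CACCTG (an E-box bound by ZEB and SNAI factors) in 17.5%.

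Depth ran between 16857982 and 18546135 reads per library where GAS41 was studied, and between 17442035 and 18894312 where doxorubicin was given. Levels are normalized reads, that is, reads divided by the size factor of the library, and no transcript length was used, so levels are compared between libraries and not between genes. Differences are on the deposited log2 scale, which is variance-stabilized and compresses low levels: its first log2 step above the floor takes in 39.1 normalized reads for the GAS41 libraries and 52.6 for the others. For a gene of few reads the log2 difference therefore understates the fold. A gene was called at a Benjamini-Hochberg adjusted p below 0.05 with limma. YEATS4 itself averaged 2482 ± 108 normalized reads in mut rescue, 3253 ± 323 in wt rescue, 349 ± 32.3 in GAS41-KO and 618 ± 8.98 in WT (SD, n = 3 each), and its log2 difference between GAS41-KO and WT was -0.64 (adjusted p = 2.09e-06). Transcripts of the transgene are counted in the rescue lines. These are bulk libraries, in which fewer cells of a type and less RNA per cell cannot be told apart.

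Loss of GAS41 left the keratins divided. In GAS41-KO over WT, 4 of the 7 tested keratins rose (KRT23, KRT20, KRT8 and KRT18), KRT15 fell, and KRT19 and KRT80 did not pass the test. Among all 14505 genes tested, 52.6% were called in this comparison, 26% higher and 26.6% lower, so a call alone does not set a keratin apart. The median log2 difference of the 7 keratins was 0.38, against -0.01 over all tested genes. The groups did not overlap for 5 of the 7 keratins, against 69% of all genes.

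Between wt rescue and GAS41-KO, 3 keratins rose (KRT80, KRT15 and KRT19) and 2 fell (KRT23 and KRT20), and 66% of all genes were called, 33% higher and 33% lower. The groups did not overlap for 6 of 7 keratins there, against 68.8% of all genes. Mut rescue over GAS41-KO gave 1 keratin higher (KRT80) and 1 lower (KRT23), where 14.9% of all genes were called, 5.92% higher and 9% lower, and 3 of 7 keratins had groups that do not overlap, against 33.7% of all genes. Mut rescue over wt rescue gave 2 higher (KRT23 and KRT20) and 3 lower (KRT80, KRT15 and KRT19), where 61.1% of all genes were called, 29.8% higher and 31.3% lower. The groups did not overlap for 4 of 7 keratins, against 57.9% of all genes. These comparisons share libraries and are not independent of each other.

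**Figure D1:**
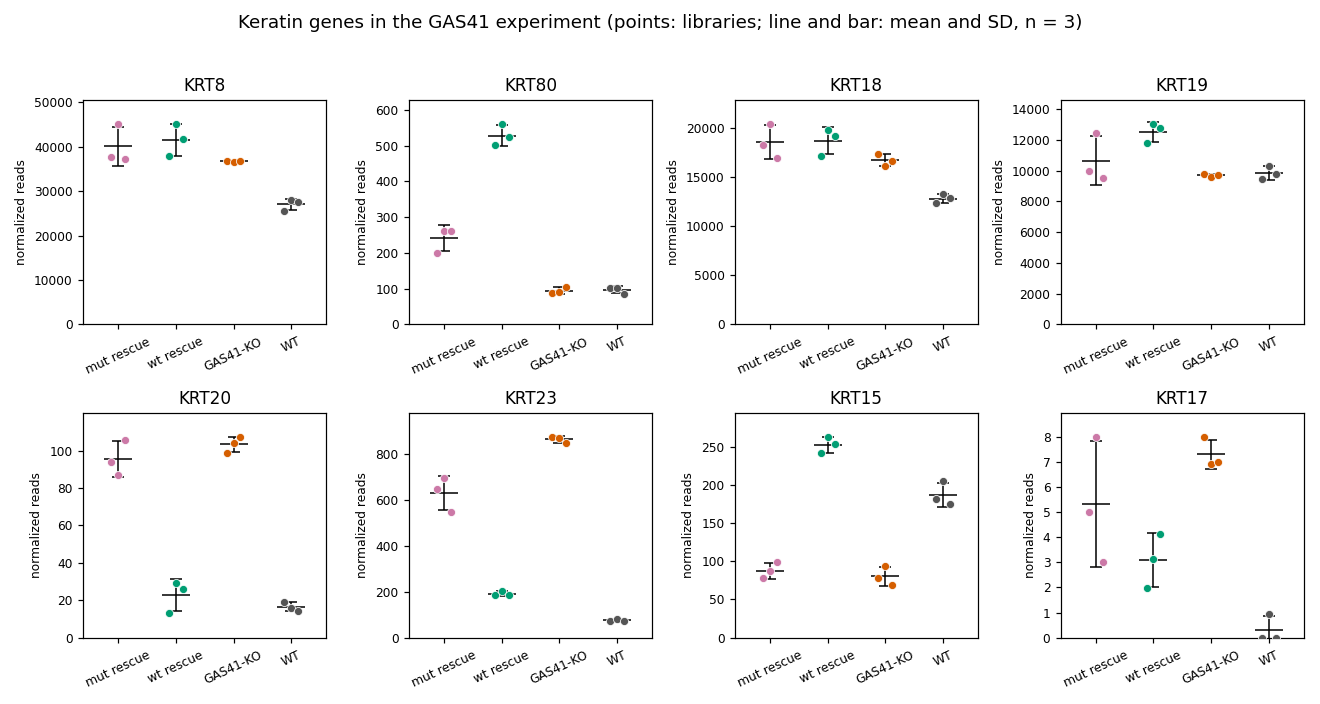
Normalized reads of the 8 keratin genes in the 12 libraries of the GAS41 experiment, on linear axes from 0; each point is a library, and lines give the mean ± SD of 3 libraries. KRT20 and KRT23 are high in mut rescue and GAS41-KO, KRT15 is high in wt rescue and WT, and KRT80 is highest in wt rescue.

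KRT8 had 37772, 45084 and 37316 normalized reads in mut rescue, 37846, 45075 and 41707 in wt rescue, 36865, 36492 and 36735 in GAS41-KO, and 25483, 27986 and 27495 in WT. All 9 libraries made from knockout cells were above all 3 WT libraries, and the GAS41-KO libraries lay within 1 narrow band. Its level was 1.36-fold higher in GAS41-KO than in WT, a log2 difference of 0.44 (SE 0.078, adjusted p = 0.00017). KRT18, its type I partner, had 18285, 20367 and 16933 normalized reads in mut rescue, 17160, 19798 and 19130 in wt rescue, 17373, 16090 and 16654 in GAS41-KO, and 12323, 13273 and 12802 in WT. KRT18 followed the same order, with no WT library reaching any of the others. It was 1.31-fold higher in GAS41-KO than in WT, a log2 difference of 0.38 (SE 0.073, adjusted p = 0.000388).

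Re-expression of GAS41 did not return this pair to its level in WT. Compared with WT, KRT8 was 1.48-fold higher in mut rescue (log2 difference 0.56, adjusted p = 2.08e-05) and 1.54-fold higher in wt rescue (log2 difference 0.62, adjusted p = 3.19e-05). KRT18 was 1.45-fold higher in mut rescue than in WT (log2 difference 0.52, adjusted p = 2.29e-05) and 1.46-fold higher in wt rescue (log2 difference 0.54, adjusted p = 6.04e-05). Over GAS41-KO the differences did not pass the test: in wt rescue the log2 difference was 0.17 for KRT8 (adjusted p = 0.0591) and 0.16 for KRT18 (adjusted p = 0.0669), and in mut rescue it was 0.12 (adjusted p = 0.346) and 0.14 (adjusted p = 0.213). The direction between wt rescue and GAS41-KO depends on the scaling, because quantile normalization turned it to -0.20 for KRT8 (adjusted p = 0.00187) and -0.13 for KRT18 (adjusted p = 0.0303). Whether these differences pass the test depends on single libraries, none of which turned the direction. Without wt rescue replicate 1 the log2 difference was 0.24 for KRT8 (adjusted p = 0.00516) and 0.22 for KRT18 (adjusted p = 0.00608), and leaving out mut rescue replicate 2 gave adjusted p-values of 0.026 and 0.0373. Without mut rescue replicate 3, KRT18 had an adjusted p of 0.0462.

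Mut rescue and wt rescue differed in log2 by -0.05 for KRT8 (95% interval -0.22 to 0.11, adjusted p = 0.564) and by -0.01 for KRT18 (95% interval -0.17 to 0.14, adjusted p = 0.875), and quantile normalization turned both, to 0.17 (adjusted p = 0.0074) and 0.20 (adjusted p = 0.00224). Ribosomal protein genes differed among the same rescue libraries. Their median log2 level relative to the mean of WT ranged between -0.007 and 0.29 in mut rescue, between 0.14 and 0.35 in wt rescue, between 0.051 and 0.14 in GAS41-KO and between -0.0095 and 0.017 in WT. In mut rescue the library with the highest ribosomal value, replicate 2, was also highest for KRT8, KRT18 and KRT19, and in wt rescue replicate 1 was lowest for all of these. The highest ribosomal value in wt rescue was that of replicate 3, whereas these keratins were highest in replicate 2, which had a ribosomal value of 0.29. Their part in the keratin differences was not tested.

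KRT19, the type I keratin that lacks most of the tail domain, did not follow KRT8 and KRT18. It had 9974, 12455 and 9497 normalized reads in mut rescue, 11789, 13030 and 12785 in wt rescue, 9780, 9617 and 9724 in GAS41-KO, and 9462, 10312 and 9762 in WT. The ranges of mut rescue, GAS41-KO and WT overlapped, and wt rescue lay above GAS41-KO and WT. GAS41-KO and WT differed by -0.02 in log2 (95% interval -0.20 to 0.16, adjusted p = 0.866). KRT19 was 1.29-fold higher in wt rescue than in GAS41-KO (log2 difference 0.36, adjusted p = 0.00117) and 1.27-fold higher in wt rescue than in WT (log2 difference 0.34, adjusted p = 0.00323). Quantile normalization lowered these to 0.11 (adjusted p = 0.156) and 0.12 (adjusted p = 0.17), and with replicate 1 as the only wt rescue library the difference from WT was 0.26 (adjusted p = 0.107). Mut rescue was 0.24 lower than wt rescue in log2 (SE 0.083, adjusted p = 0.0193), with ranges that overlap through mut rescue replicate 2. That call was lost without mut rescue replicate 1 or 3 (adjusted p = 0.0839 and 0.104), without wt rescue replicate 2 or 3 (adjusted p = 0.0592 and 0.0604) and under quantile normalization (adjusted p = 0.569).

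The proportions between these chains were read within each library, where scaling has no part. KRT19 reads per KRT18 read averaged 0.573 ± 0.0346 in mut rescue, 0.671 ± 0.0146 in wt rescue, 0.582 ± 0.0175 in GAS41-KO and 0.769 ± 0.00727 in WT (SD, n = 3 each). All 3 WT libraries were above all other libraries, and all wt rescue libraries were above those of mut rescue and GAS41-KO. KRT8 reads per KRT18 read stayed in a narrower band, at 2.16 ± 0.0827 in mut rescue, 2.22 ± 0.0501 in wt rescue, 2.20 ± 0.0732 in GAS41-KO and 2.11 ± 0.0399 in WT. With 3 libraries in each group the exact two-sided permutation test cannot give a p below 0.1. The KRT19 ratio reached 0.1 for GAS41-KO against WT, and that was 0.175 after adjustment over 14 ratio tests. For KRT8 per KRT18 in GAS41-KO against WT the exact p was 0.2.

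KRT20, the keratin of differentiated intestinal cells, had 93.7, 86.8 and 106 normalized reads in mut rescue, 12.9, 29.2 and 25.8 in wt rescue, 98.8, 104 and 107 in GAS41-KO, and 19.1, 16.1 and 14.2 in WT. The libraries fell into a high range in mut rescue and GAS41-KO and a low range in wt rescue and WT, with no overlap. KRT20 was 6.27-fold higher in GAS41-KO than in WT, a log2 difference of 0.92 (SE 0.070, adjusted p = 1.89e-08). In wt rescue it was 4.56-fold lower than in GAS41-KO (log2 difference -0.82, adjusted p = 5.14e-08). Mut rescue and GAS41-KO differed by -0.06 in log2 (95% interval -0.21 to 0.09, adjusted p = 0.659), and mut rescue was 4.21-fold higher than wt rescue (log2 difference 0.76, adjusted p = 2.14e-07). Between wt rescue and WT the log2 difference was 0.10 (adjusted p = 0.239), and it was 0.19 (adjusted p = 0.0181) without wt rescue replicate 1, the lowest of its group. With replicate 1 as the only wt rescue library it turned to -0.07. Mut rescue was 5.80-fold higher than WT (log2 difference 0.87, adjusted p = 5.21e-08).

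KRT23 showed the largest difference of the 7 tested keratins in GAS41-KO over WT. It had 645, 693 and 548 normalized reads in mut rescue, 183, 203 and 185 in wt rescue, 872, 870 and 846 in GAS41-KO, and 70.6, 81.2 and 72.1 in WT. No group overlapped another, in the order GAS41-KO, mut rescue, wt rescue and WT. GAS41-KO was 11.6-fold above WT, a log2 difference of 2.34 (SE 0.068, adjusted p = 1.13e-13), which was the 29th highest of the 14505 genes tested. In wt rescue KRT23 was 4.53-fold lower than in GAS41-KO (log2 difference -1.63, adjusted p = 1.01e-11), and it remained 2.55-fold above WT (log2 difference 0.71, adjusted p = 2.4e-06). In mut rescue it was 1.37-fold lower than in GAS41-KO (log2 difference -0.39, adjusted p = 0.00102) and 8.43-fold above WT (log2 difference 1.95, adjusted p = 1.64e-12). Mut rescue was 3.30-fold above wt rescue (log2 difference 1.24, adjusted p = 4.99e-10). KRT20, its neighbour on chromosome 17, was likewise higher in mut rescue and GAS41-KO than in wt rescue and WT.

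KRT15, a keratin of basal cells in stratified epithelia, ran the other way. It had 77.8, 86.8 and 98.6 normalized reads in mut rescue, 242, 263 and 254 in wt rescue, 78.8, 94.04 and 69.1 in GAS41-KO, and 181, 205 and 176 in WT. Mut rescue and GAS41-KO shared a low range, and every library of wt rescue was above every library of WT. KRT15 was 2.32-fold lower in GAS41-KO than in WT, a log2 difference of -0.65 (SE 0.066, adjusted p = 5.71e-07), and 2.13-fold lower in mut rescue than in WT (log2 difference -0.59, adjusted p = 2.06e-06). In wt rescue it was 3.14-fold higher than in GAS41-KO (log2 difference 0.93, adjusted p = 6.64e-09) and 1.35-fold higher than in WT (log2 difference 0.28, adjusted p = 0.00281). The last call was lost with replicate 1 as the only wt rescue library (log2 difference 0.24, adjusted p = 0.0989). Mut rescue and GAS41-KO differed by 0.06 in log2 (95% interval -0.08 to 0.20, adjusted p = 0.635), and mut rescue was 2.88-fold below wt rescue (log2 difference -0.87, adjusted p = 2.51e-08).

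KRT80, a type II chain like KRT8, did not pass the test between GAS41-KO and WT but was raised in both rescue lines. It had 198, 262 and 263 normalized reads in mut rescue, 501, 560 and 523 in wt rescue, 87.8, 91.1 and 105 in GAS41-KO, and 102, 103 and 86.3 in WT. GAS41-KO and WT occupied the same range, with mut rescue above both and wt rescue above all. The log2 difference between GAS41-KO and WT was -0.02 (95% interval -0.17 to 0.14, adjusted p = 0.857). In wt rescue KRT80 was 5.58-fold higher than in GAS41-KO (log2 difference 1.59, SE 0.074, adjusted p = 3.9e-11) and 5.44-fold higher than in WT (log2 difference 1.58, adjusted p = 7.67e-10), where it was the 7th highest of all genes tested. In mut rescue it was 2.55-fold higher than in GAS41-KO (log2 difference 0.77, adjusted p = 3.65e-06), the 12th highest of that comparison, and 2.48-fold higher than in WT (log2 difference 0.75, adjusted p = 5.47e-07). Mut rescue was 2.19-fold below wt rescue (log2 difference -0.83, adjusted p = 1.59e-07).

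KRT17, the keratin of wounded and stressed skin, stayed near the lower limit of counting in the GAS41 experiment and has no test there. The libraries of mut rescue held 5, 8 and 3 reads, those of wt rescue 2, 3 and 4, those of GAS41-KO 8, 7 and 7, and those of WT 0, 1 and 0. GAS41-KO thus held 22 reads against 1 read in WT, a ratio of normalized reads of 23.1 with a 95% counting interval of 3.73 to 953. Mut rescue held 16 reads, a ratio to WT of 16.9 (2.62 to 707), and wt rescue held 9, a ratio to WT of 9.70 (1.34 to 425). Wt rescue over GAS41-KO gave a ratio of 0.42 (0.17 to 0.95), mut rescue over GAS41-KO 0.73 (0.359 to 1.46) and mut rescue over wt rescue 1.74 (0.723 to 4.46). These intervals cover counting error only and not the spread between cultures.

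Across the groups made from knockout cells, wt rescue over WT gave 6 keratins higher and none lower, where 50.1% of all genes were called, 27.4% higher and 22.7% lower, and the keratin not called was KRT20. The groups did not overlap for those 6 keratins, against 57.3% of all genes. Mut rescue over WT gave 5 higher and 1 lower, where 46.3% of all genes were called, 23.5% higher and 22.9% lower, KRT15 being the lower one and KRT19 not passing the test. Here 6 of 7 had groups that do not overlap, against 56% of all genes. The 8 genes together took 0.405 ± 0.0391% of reads in mut rescue, 0.391 ± 0.0190% in wt rescue, 0.381 ± 0.00153% in GAS41-KO and 0.295 ± 0.0143% in WT (SD, n = 3 each). KRT8, KRT18 and KRT19 made up nearly all of these reads, at 0.399% of all reads in mut rescue, 0.386% in wt rescue, 0.374% in GAS41-KO and 0.292% in WT.

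Doxorubicin raised every one of the 8 keratins over DMSO, with no overlap between the groups in any of them. Among all 14195 genes tested, 65.7% were called in this comparison, 32.3% higher and 33.4% lower, and 69.1% had groups that do not overlap. The median log2 difference of the 8 genes, which were chosen with earlier results known, was 1.00, against -0.01 over all tested genes. Their share of reads was 0.850 ± 0.0412% in doxorubicin and 0.382 ± 0.0347% in DMSO (SD, n = 3 each).

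**Figure D2:**
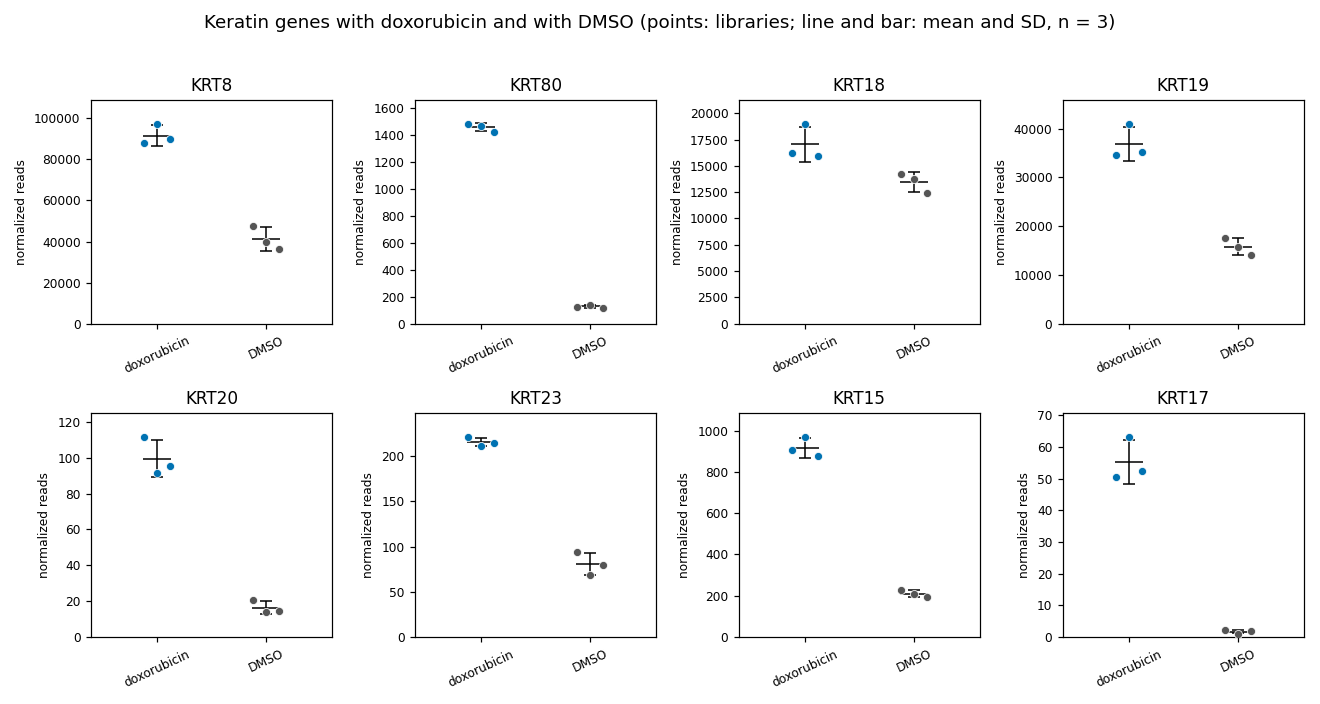
Normalized reads of the 8 keratin genes in the 3 doxorubicin and 3 DMSO libraries, on linear axes from 0; each point is a library, and lines give the mean ± SD. Every doxorubicin library lies above every DMSO library in each panel, and the fold is smallest for KRT18, at 1.27.

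Among the keratins of simple epithelia the response was uneven. KRT8 had 87802, 97253 and 89787 normalized reads in doxorubicin, against 47667, 39905 and 36397 in DMSO. It was 2.22-fold higher with doxorubicin, a log2 difference of 1.15 (SE 0.10, adjusted p = 4.5e-07). KRT19 had 34522, 40961 and 35273 normalized reads in doxorubicin, against 17508, 15710 and 14057 in DMSO, and was 2.34-fold higher (log2 difference 1.22, SE 0.097, adjusted p = 1.8e-07). KRT18, the usual partner of KRT8, moved least. It had 16211, 18977 and 15930 normalized reads in doxorubicin, against 14189, 13764 and 12444 in DMSO, a 1.27-fold difference (log2 difference 0.33, SE 0.088, adjusted p = 0.00466). KRT20 had 112, 91.6 and 95.7 normalized reads in doxorubicin, against 20.3, 13.9 and 14.6 in DMSO, and was 6.13-fold higher (log2 difference 0.79, SE 0.058, adjusted p = 8.85e-08).

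Within a library, KRT8 reads per KRT18 read were 5.39 ± 0.257 in doxorubicin and 3.06 ± 0.259 in DMSO (SD, n = 3 each), with no overlap. KRT19 reads per KRT18 read were 2.17 ± 0.0430 in doxorubicin and 1.17 ± 0.0572 in DMSO. The exact two-sided permutation p was 0.1 for each, the smallest that 3 libraries against 3 allow, and 0.175 after adjustment over the 14 ratio tests. Set against both type I chains together, KRT8 reads per read of KRT18 and KRT19 were 1.70 ± 0.0700 in doxorubicin and 1.41 ± 0.0815 in DMSO. Ribosomal protein genes went the other way, with a median log2 level relative to the mean of DMSO between -0.48 and -0.28 in doxorubicin and between -0.14 and 0.22 in DMSO, and their part in these differences was not tested.

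**Figure D3:**
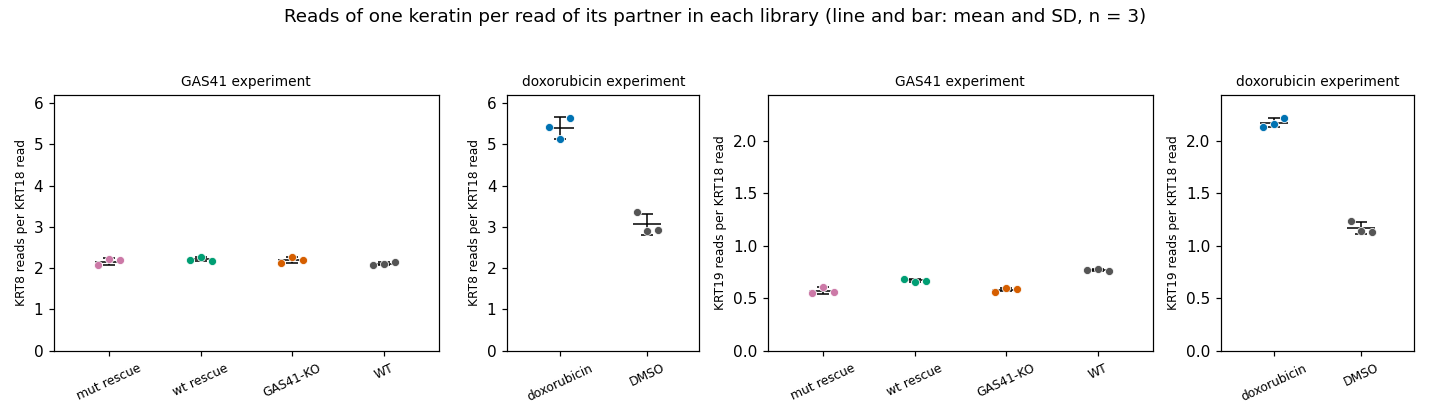
Reads of KRT8 per KRT18 read and of KRT19 per KRT18 read in each library of both experiments; points are libraries and lines give the mean ± SD of 3 libraries. The KRT8 ratio lies near 2 in the GAS41 experiment, and both ratios are higher in doxorubicin than in DMSO; in the GAS41 experiment the KRT19 ratio is highest in WT.

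The other 4 keratins rose as well. KRT80 had 1485, 1472 and 1425 normalized reads in doxorubicin, against 125, 141 and 119 in DMSO. Its 11.4-fold rise, a log2 difference of 2.46 (SE 0.062, adjusted p = 5.38e-12), was the 48th highest of the 14195 genes tested. KRT15 had 906, 969 and 876 normalized reads in doxorubicin, against 229, 207 and 194 in DMSO, and was 4.36-fold higher (log2 difference 1.51, SE 0.066, adjusted p = 5.95e-10). KRT23 had 221, 212 and 215 normalized reads in doxorubicin, against 93.5, 68.5 and 79.6 in DMSO, a 2.68-fold difference (log2 difference 0.70, SE 0.062, adjusted p = 5.01e-07). KRT17 was nearly silent without the drug: 51, 62 and 53 reads were found in doxorubicin, against 2, 1 and 2 in DMSO. Its ratio of normalized reads was 33.3 (95% counting interval 14.01 to 104), and its log2 difference was 0.84 (SE 0.053, adjusted p = 2.06e-08).

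Set side by side, all 8 keratins rose in doxorubicin over DMSO. Those higher in both experiments are therefore simply the 4 that rose in GAS41-KO over WT, namely KRT8, KRT18, KRT20 and KRT23. Among all tested genes 26% were higher in GAS41-KO over WT and 32.3% in doxorubicin over DMSO. The share of all genes higher in both was not counted. KRT15 rose with doxorubicin and fell in GAS41-KO, and KRT19 and KRT80 rose with doxorubicin and did not pass the test in GAS41-KO. KRT20 had similar folds in the 2 experiments, 6.27 in GAS41-KO over WT and 6.13 in doxorubicin over DMSO, while KRT23 had 11.6 and 2.68. The tables were normalized separately and sequenced on different instruments, so no test was made across them. YEATS4 itself averaged 185 ± 10.7 normalized reads in doxorubicin and 668 ± 48.3 in DMSO (SD, n = 3 each), a log2 difference of -1.25 (adjusted p = 3.58e-09). In that comparison 33.4% of all tested genes were lower, and the part of YEATS4 in the keratin differences was not tested.

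**Figure D4:**
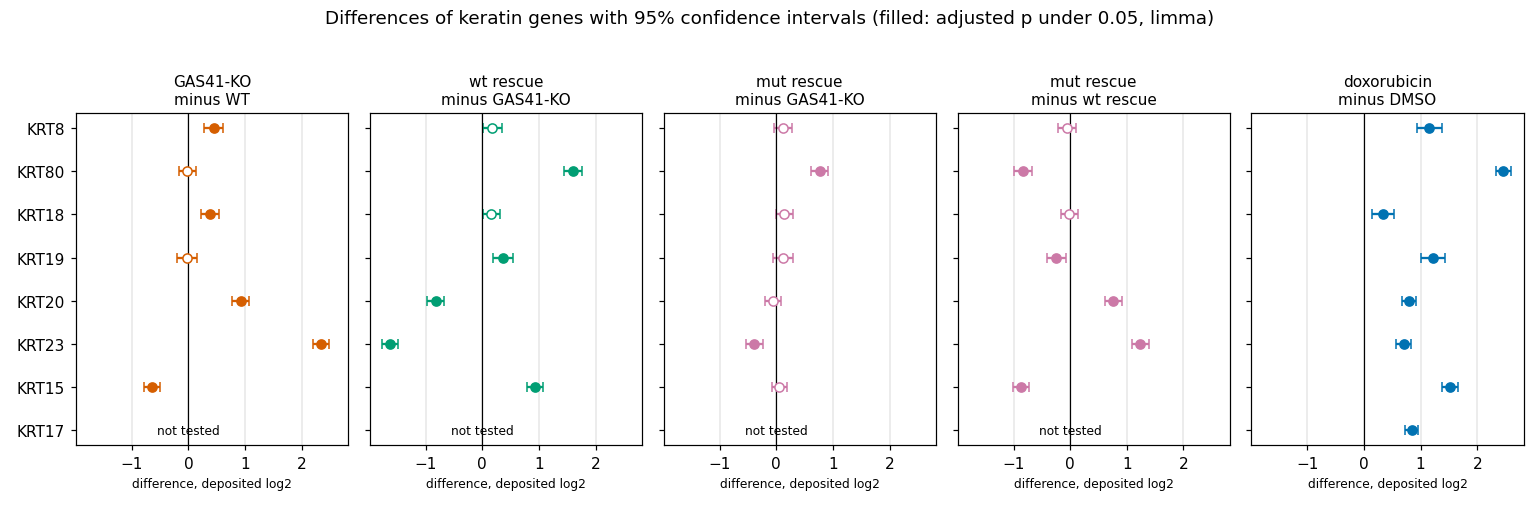
Log2 difference of each keratin on the deposited scale in 5 comparisons, with 95% intervals; filled points passed an adjusted p of 0.05, and KRT17 was not tested in the GAS41 experiment. KRT23 stands out on the high side in GAS41-KO over WT, KRT80 in wt rescue over GAS41-KO, and KRT80 and KRT15 in doxorubicin over DMSO. The scale compresses low levels, so the points do not rank folds. With doxorubicin KRT17 lies at 0.84, where its ratio of normalized reads was 33.3.

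Most other keratin genes were sparse in these cells. KRT10 was not, at 705 ± 106 normalized reads in mut rescue, 834 ± 69.8 in wt rescue, 613 ± 26.9 in GAS41-KO and 628 ± 15.3 in WT (SD, n = 3 each). Of 22 other type I keratins, 15 were in the GAS41 table and 4 were tested, and of 24 other type II keratins, 12 were in the table and 4 were tested. The count of other type I keratins called in GAS41-KO over WT was 0 by limma on the deposited values and 0 by limma-voom on the recovered reads, with 1, KRT13, at an unadjusted p under 0.05. It was 1 without GAS41-KO replicate 3 or WT replicate 2, and 3 of 15 with no filter on low reads. Among the type II genes 2 were higher in GAS41-KO than in WT, where 26% of all tested genes were higher. KRT5, the basal cell keratin, averaged 29.7 ± 1.08 normalized reads in mut rescue, 2.37 ± 1.496 in wt rescue, 16.3 ± 5.75 in GAS41-KO and 1.58 ± 0.554 in WT (SD, n = 3 each), with an adjusted p of 2.43e-05 for GAS41-KO over WT. KRT86, a hair keratin, averaged 24.0 ± 8.84 in mut rescue, 6.48 ± 1.58 in wt rescue, 9.97 ± 2.69 in GAS41-KO and 3.79 ± 0.929 in WT, with an adjusted p of 0.0242 that was lost without GAS41-KO replicate 1 or 3 (0.0715 and 0.0896), without WT replicate 1 or 3 (0.0804 and 0.0547) and under quantile normalization (0.0711). All 4 tested type II genes were called higher in mut rescue than in each of wt rescue, GAS41-KO and WT, where 29.8%, 5.92% and 23.5% of all tested genes were higher, though several of these calls rest on single libraries. KRT7, a type II keratin of simple ducts, was among them at 135 ± 29.5 in mut rescue, 94.3 ± 12.9 in wt rescue, 42.1 ± 11.6 in GAS41-KO and 33.2 ± 7.41 in WT. Its difference between mut rescue and wt rescue was lost without mut rescue replicate 1 or 2 (adjusted p = 0.0514 and 0.103) without wt rescue replicate 1 (0.0582), on log2 of normalized reads plus 1 (0.0615) and under quantile normalization (0.151). In mut rescue over GAS41-KO, KRT5 lost its call without mut rescue replicate 1 (adjusted p = 0.0754) or GAS41-KO replicate 2 (0.129) and on log2 of normalized reads plus 1 (0.15), and KRT86 without GAS41-KO replicate 2 (0.0695).

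The other type I genes called in the remaining comparisons of the GAS41 experiment were 2 higher and 1 lower in wt rescue over GAS41-KO, 1 higher and 1 lower in mut rescue over GAS41-KO, 1 lower in mut rescue over wt rescue, 3 higher and 1 lower in wt rescue over WT, and 1 higher in mut rescue over WT. The gene lower in mut rescue than in wt rescue was KRT10, a keratin of upper skin layers (log2 difference -0.21, adjusted p = 0.0333). That call was lost without mut rescue replicate 1 or 3 (adjusted p = 0.0718 and 0.192), without wt rescue replicate 2 or 3 (0.051 and 0.153), with replicate 1 as the only wt rescue library (0.382) and under quantile normalization (0.0525). In wt rescue over WT the call of KRT10 was lost with replicate 1 as the only wt rescue library (0.114). Without mut rescue replicate 3, KRT10 was called higher in mut rescue than in GAS41-KO (0.0387) and than in WT (0.0271). Type II genes gave 2 higher and 1 lower in wt rescue over GAS41-KO and 2 higher in wt rescue over WT. With doxorubicin all 3 tested type II genes and 2 of 5 tested type I genes rose, where 32.3% of all tested genes were higher. KRT5 averaged 52.6 ± 14.8 normalized reads in doxorubicin and 0.654 ± 0.567 in DMSO, where only 2 reads were found in all. KRT81, a hair keratin, averaged 30.7 ± 7.22 in doxorubicin and 9.99 ± 3.83 in DMSO, and KRT7 averaged 73.9 ± 14.1 in doxorubicin and 33.8 ± 9.23 in DMSO. KRT16, the neighbour of KRT17 and a keratin of injured skin, averaged 19.0 ± 6.17 in doxorubicin and 4.30 ± 0.578 in DMSO. KRT9, a keratin of palm and sole skin, averaged 19.7 ± 8.97 in doxorubicin and 1.31 ± 1.13 in DMSO. KRT10 was the 1 that fell, to 496 ± 42.8 in doxorubicin, against 636 ± 29.4 in DMSO (log2 difference -0.27, adjusted p = 0.00317).

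The list counts that follow stand beside these shares of all tested genes: 26% higher and 26.6% lower in GAS41-KO over WT, 33% and 33% in wt rescue over GAS41-KO, 5.92% and 9% in mut rescue over GAS41-KO, 29.8% and 31.3% in mut rescue over wt rescue, 27.4% and 22.7% in wt rescue over WT, 23.5% and 22.9% in mut rescue over WT, and 32.3% and 33.4% in doxorubicin over DMSO.

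Desmosomes anchor keratin filaments at cell contacts, and their genes were divided. In GAS41-KO over WT, 3 of 10 tested desmosome genes rose and 5 fell, where 26% of all tested genes rose and 26.6% fell. The desmosomal cadherin DSC3 averaged 13.96 ± 3.67 normalized reads in GAS41-KO and 354 ± 35.4 in WT, DSC2 168 ± 6.86 in GAS41-KO and 977 ± 23.9 in WT, and the plaque protein PKP3 196 ± 10.8 in GAS41-KO and 1248 ± 105 in WT (SD, n = 3 each). PKP2, another plaque protein, averaged 358 ± 16.9 in GAS41-KO and 653 ± 5.02 in WT. These falls had adjusted p-values between 2.49e-12 for DSC2 and 8.47e-08 for PKP2. The 3 that rose were DSP, JUP and PKP4. DSP averaged 8475 ± 228 in GAS41-KO and 7037 ± 231 in WT. JUP averaged 4954 ± 109 in GAS41-KO and 3828 ± 155 in WT, and PKP4 2718 ± 19.8 in GAS41-KO and 1891 ± 30.2 in WT. The other comparisons gave 5 higher and 2 lower in wt rescue over GAS41-KO, 3 higher and 0 lower in mut rescue over GAS41-KO, 2 higher and 5 lower in mut rescue over wt rescue, 1 higher and 4 lower in wt rescue over WT, and 3 higher and 5 lower in mut rescue over WT. With doxorubicin 5 of 10 rose and 2 fell. DSC3 was among those that rose, at 1648 ± 173 in doxorubicin and 265 ± 50.9 in DMSO (adjusted p = 8.51e-10), as was JUP, the plakoglobin gene, at 11354 ± 102 in doxorubicin and 5543 ± 615 in DMSO (adjusted p = 2.6e-07). PERP, a desmosome-associated membrane protein, averaged 7571 ± 182 in doxorubicin and 3670 ± 41.4 in DMSO.

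Genes that link keratins to other structures or bind them numbered 14, all tested, of which 6 rose and 5 fell in GAS41-KO over WT, beside 26% and 26.6% of all tested genes. ITGB4, the integrin chain of hemidesmosomes, averaged 29537 ± 1367 normalized reads in GAS41-KO and 5496 ± 206 in WT (SD, n = 3 each, adjusted p = 1.49e-13), and PLEC, the plectin gene, whose product ties that integrin to keratins, averaged 18407 ± 1285 in GAS41-KO and 13620 ± 431 in WT. EVPL, the envoplakin gene, averaged 2078 ± 89.7 in GAS41-KO and 1545 ± 97.5 in WT. EPPK1, the epiplakin gene, fell to 320 ± 41.02 in GAS41-KO, against 588 ± 5.37 in WT. The counts were 7 higher and 4 lower in wt rescue over GAS41-KO, 3 higher and 1 lower in mut rescue over GAS41-KO, 5 higher and 6 lower in mut rescue over wt rescue, 9 higher and 4 lower in wt rescue over WT, and 5 higher and 2 lower in mut rescue over WT. Doxorubicin raised 9 and lowered 3. Among those that rose, EPPK1 averaged 6165 ± 996 in doxorubicin and 561 ± 111 in DMSO (adjusted p = 2.17e-10). SFN, which encodes the 14-3-3 sigma protein, averaged 36266 ± 3962 in doxorubicin and 5498 ± 391 in DMSO (adjusted p = 6.09e-11).

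Among intermediate filament genes other than keratins, 5 of 9 tested rose and 3 fell in GAS41-KO over WT, beside 26% and 26.6% of all tested genes. VIM, the filament gene of mesenchymal cells, averaged 290 ± 0.801 normalized reads in mut rescue, 35.8 ± 3.55 in wt rescue, 340 ± 2.51 in GAS41-KO and 33.3 ± 7.73 in WT (SD, n = 3 each), the same high and low groups as KRT20. SYNM, the synemin gene, averaged 739 ± 31.0 in GAS41-KO and 184 ± 9.61 in WT, and BFSP1, a filament gene known from the lens, averaged 475 ± 16.3 in GAS41-KO and 136 ± 8.39 in WT. LMNB1, a lamin gene, fell to 3446 ± 104 in GAS41-KO, against 4583 ± 105 in WT. Wt rescue over GAS41-KO gave 3 higher and 4 lower, mut rescue over GAS41-KO 0 higher and 2 lower, mut rescue over wt rescue 4 higher and 3 lower, wt rescue over WT 4 higher and 1 lower, and mut rescue over WT 5 higher and 3 lower. In doxorubicin over DMSO 3 rose and 5 fell. VIM averaged 14.003 ± 3.87 in doxorubicin and 40.8 ± 6.94 in DMSO. DES, the desmin gene of muscle, averaged 175 ± 16.2 in doxorubicin and 39.8 ± 3.91 in DMSO, SYNM 403 ± 47.1 in doxorubicin and 129 ± 18.4 in DMSO, and LMNB1 2095 ± 76.5 in doxorubicin and 4124 ± 174 in DMSO.

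Epithelial identity was checked on markers that are not keratins. The summed level of 12 colon epithelium markers, of which 11 were in the GAS41 table, lay between 3728 and 4045 normalized reads in mut rescue, between 14530 and 17023 in wt rescue, between 3280 and 3428 in GAS41-KO and between 14160 and 14582 in WT. In GAS41-KO over WT 1 of 7 tested markers was higher and 5 were lower. EPCAM, an epithelial adhesion gene, averaged 915 ± 17.0 in GAS41-KO and 7503 ± 348 in WT, and CDH1, the E-cadherin gene, 138 ± 15.1 in GAS41-KO and 1419 ± 17.0 in WT (SD, n = 3 each). CLDN3 was the 1 higher marker, at 123 ± 13.5 in GAS41-KO and 87.0 ± 9.81 in WT. In GAS41-KO over WT, KRT8, KRT18, KRT20 and KRT23 were thus higher, and KRT15 lower, where 5 of the 7 tested markers were lower. In wt rescue the marker sum overlapped that of WT only at its low end, and 2 of 7 tested markers were called higher than in WT and 0 lower. KRT8 and KRT18 were above WT there as well. The intestinal markers VIL1, LGALS4, GPA33 and CDH17 averaged under 10 normalized reads in every group of the GAS41 experiment, so the colon label rests on the remaining markers. CDX2, an intestinal marker among these, averaged 203 ± 29.1 in mut rescue, 262 ± 36.5 in wt rescue, 215 ± 19.8 in GAS41-KO and 235 ± 22.0 in WT. In the other experiment the sum lay between 16431 and 17725 in doxorubicin and between 16477 and 16597 in DMSO, but single markers moved. Of 8 tested, 5 were higher and 1 was lower with doxorubicin, with a median log2 difference of 0.34. EPCAM fell to 4938 ± 409 in doxorubicin, against 7198 ± 391 in DMSO, while CDH1 averaged 2105 ± 85.3 in doxorubicin and 1405 ± 32.0 in DMSO. VIL1, a gene of the intestinal brush border, had 140 reads over the doxorubicin libraries and 1 read over the DMSO libraries. The intestinal markers CDX1, LGALS4, GPA33 and CDH17 averaged under 10 normalized reads in both doxorubicin and DMSO. CDX2 averaged 437 ± 18.3 in doxorubicin and 343 ± 30.9 in DMSO. The part of these markers in the keratin differences was not tested.

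Markers of squamous epithelium, where KRT15 and KRT17 are at home, were low throughout. Of 8 such markers, 4 were in the GAS41 table and 5 in the other, and KRT14 and TP63 averaged under 10 normalized reads in every group. The sum over the list lay between 41.9 and 44.3 normalized reads in mut rescue, between 14.9 and 15.6 in wt rescue, between 24.7 and 35.9 in GAS41-KO and between 10.5 and 13.2 in WT. It lay between 61.2 and 89.9 in doxorubicin and between 6.10 and 12.6 in DMSO. The sum was thus higher in mut rescue, wt rescue and GAS41-KO than in WT, and higher with doxorubicin. Leaving out KRT5, their sum lay between 10.97 and 15.1 in mut rescue, between 10.96 and 14.5 in wt rescue, between 10.01 and 17.96 in GAS41-KO and between 8.59 and 12.3 in WT, and between 25.6 and 27.7 in doxorubicin and between 6.10 and 11.6 in DMSO. The part of this list in the keratin differences was not tested.

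Fibroblast markers, 3 of 9 in the GAS41 table, summed to between 262 and 335 normalized reads in mut rescue, between 161 and 179 in wt rescue, between 240 and 311 in GAS41-KO and between 270 and 308 in WT. In the other experiment 8 of 9 were found, and they summed to between 330 and 408 in doxorubicin and between 246 and 339 in DMSO. Most of these sums was COL1A1. COL3A1, another collagen gene, had few reads, 24 in mut rescue, 0 in wt rescue, 56 in GAS41-KO and 2 in WT. COL1A1 did not share that order, at 285 ± 39.8 normalized reads in mut rescue, 167 ± 11.1 in wt rescue, 242 ± 31.2 in GAS41-KO and 285 ± 19.6 in WT (SD, n = 3 each). PDGFRB averaged under 10 in every group of the GAS41 experiment. With the drug it was higher, at 26.0 ± 5.78 in doxorubicin and 4.63 ± 1.15 in DMSO. Blood markers summed to between 237 and 311 in mut rescue, between 322 and 390 in wt rescue, between 220 and 245 in GAS41-KO and between 196 and 215 in WT, and to between 203 and 238 in doxorubicin and between 262 and 299 in DMSO, with PTPRC under 10 in every group. Nearly all of the blood sum was CD68 and LYZ, and the other blood markers found averaged under 10 in every group. CD68 averaged 239 ± 31.4 in mut rescue, 329 ± 35.7 in wt rescue, 172 ± 4.83 in GAS41-KO and 180 ± 12.7 in WT. It averaged 171 ± 19.9 in doxorubicin and 256 ± 19.5 in DMSO. The part of either list in the keratin differences was not tested.

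Genes whose pattern over the 12 GAS41 libraries was most like a keratin's were sought for KRT23 and KRT80, the only tested members whose group means spanned at least 1 log2. The measure was the root mean square difference of centred log2 values, over 9667 other genes with a mean of at least 100 normalized reads. ITGB4 came closest to KRT23, at 0.0995, followed by AHNAK2 at 0.209 and TGFB2 at 0.210. ITGB4 averaged 20559 normalized reads in mut rescue, 8308 in wt rescue, 29537 in GAS41-KO and 5496 in WT. KRT23 averaged 629 in mut rescue, 190 in wt rescue, 863 in GAS41-KO and 74.7 in WT. Its low levels are compressed on the log2 scale, so a small distance there does not mean an equal fold. For KRT80 the closest were LAMB3, a chain of laminin-332, at 0.225, then THBS1 and CPA4, both at 0.267. LAMB3 averaged 795 normalized reads in mut rescue, 987 in wt rescue, 319 in GAS41-KO and 381 in WT.

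KRT8 and KRT18 have many processed pseudogenes in the human genome, and how reads that match a gene and its copies were counted is not given in the sources used here. The GAS41 table listed 4 keratin pseudogenes, and 7 were listed for the doxorubicin experiment. The one with most reads, KRT8P41, averaged 14.7 normalized reads in mut rescue, 20.9 in wt rescue, 14.9 in GAS41-KO and 10.4 in WT, and 10.0 in doxorubicin and 2.96 in DMSO. These levels are small beside those of KRT8 in the same libraries.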

How the data were processed

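Poly-A RNA of the 12 GAS41 libraries was sequenced on a BGISEQ-500, and RNA of the 6 doxorubicin libraries was sequenced on an Illumina HiSeq, per the labels' protocols. The submitters' processing notes name DESeq2, HTSeq, TopHat2 2.1.0, Bowtie 1.0.1, Trimmomatic 0.36 and CASAVA 1.4, with hg19 and mm9 as builds, none with a role; annotation and strand setting are not given in the sources used here. The authors deposited log2 variance-stabilized values in tables named as counts. This was read from the values, since undoing the transformation returned whole reads, within 0.01, for all of them and the size factors equal median-ratio factors. Recovered reads gave depth, normalized reads and the filter of at least 10 reads in at least 3 libraries.

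Deposited log2 values were tested with limma 3.58.1 in R 4.3.3 (trend in the prior variance), in 1 fit for the 12 GAS41 libraries and another for the 6 doxorubicin libraries, with Benjamini-Hochberg adjustment over all tested genes. Ratios of reads were compared by exact permutation, and KRT17 by the counting interval of 2 read sums. Figures were drawn with Python 3.11.15 and matplotlib 3.10.9. The fit was checked on simulated data.

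All 8 keratins were named whatever their values. From each list, up to 4 genes that GAS41-KO changed relative to WT and up to 3 that doxorubicin changed were named by smallest p. Members and lists were chosen with earlier results of these data known. Alternatives were no filter, log2 of normalized reads plus 1, voom on recovered reads, quantile normalization, the replicate number as a block, leaving out each replicate, and replicate 1 as the only wt rescue library.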

Additional observations from a re-analysis of the deposited data

How the results depend on the processing

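The 7 counts of called keratins stayed within 1.5 times their value under every alternative run. Leaving out 1 replicate gave 5 in each case in GAS41-KO over WT, 5 to 7 in wt rescue over GAS41-KO, 2 in mut rescue over GAS41-KO, 4 to 5 in mut rescue over wt rescue, 6 to 7 in wt rescue over WT, 6 in mut rescue over WT and 8 with doxorubicin. Of 50 results of single keratins, 41 kept their side of the threshold under all alternatives run, and those of them that were called kept their direction. The sign turned under some alternatives for 4 of those 41, none of them called: KRT19 and KRT80 in GAS41-KO over WT, KRT8 in mut rescue over GAS41-KO and KRT19 in mut rescue over WT. Outside the 41, KRT20 in wt rescue over WT turned to -0.07 with replicate 1 as the only wt rescue library. Quantile normalization turned the direction for KRT8 and KRT18, to -0.20 and -0.13 in wt rescue over GAS41-KO and to 0.17 and 0.20 in mut rescue over wt rescue; the cause was not tested. Over all genes, calls in mut rescue over GAS41-KO ranged between 1283 and 3238 without 1 replicate, against 2164, and calls in wt rescue over WT were 2328 with replicate 1 as the only wt rescue library, against 7267, with fewer samples in that fit.

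Same-numbered libraries did not deviate together in every pair. The correlations of their deviations were between -0.39 and 0.478 in the GAS41 experiment, with 11 of 18 pairs above 0.1, and between -0.393 and 0.15 in the doxorubicin experiment, with 1 of 3 above 0.1. The replicate block gave 5 keratins in GAS41-KO over WT, 6 in wt rescue over GAS41-KO, 2 in mut rescue over GAS41-KO, 5 in mut rescue over wt rescue, 6 in wt rescue over WT, 6 in mut rescue over WT and 8 with doxorubicin. The added call was KRT8 in wt rescue over GAS41-KO (adjusted p = 0.0341). Depth limits KRT17 in the GAS41 experiment, where a library held at most 8 reads of it.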
